A study of Homo sapiens with 6 samples.

Results

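The integrated stress response and the unfolded protein response were examined in FUJIOKA cells, an established human acute myeloid leukaemia (AML) line, through 40 genes picked by symbol out of the 63236 genes of the deposited expression table. The 40 members were 18 genes of the ATF4 arm (10 regulators and feedback genes and 8 enzymes), 5 stress sensors or their transcription factors, 13 chaperones and folding enzymes of the endoplasmic reticulum (ER), and 4 genes of ER-associated degradation. The symbols matched 41 rows, because HYOU1 had a second row with a mean of 0, and the row with reads was used. The rule that picks the members names symbols and no measured value, although earlier results of these data were known when they were listed.

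Bulk RNA-sequencing compared 3 libraries labelled shNEG with 3 labelled shSPINK2. The cells of both groups carried a doxycycline-inducible short hairpin RNA (shRNA) in the Tet-pLKO-puro lentiviral vector, had been selected with puromycin and received doxycycline at a labelled 1 µg/µl. In shNEG the shRNA was a scrambled, non-targeting control, and in shSPINK2 it was directed against SPINK2, which encodes a small Kazal-type inhibitor of serine proteases. The control cells therefore shared the vector, the virus, puromycin and doxycycline with the knockdown cells. The labels name 2 shRNA sequences against SPINK2 and do not say which library carries which, whereas the methods of the study name shRNA1 alone. The time on doxycycline before RNA extraction is not given in the sources used here. The 2 target sequences are shown because stretches of both, 1 of them in capitals, are looked up in the members at the end.
shRNA1: tcagggaaggtggtcataata
shRNA2: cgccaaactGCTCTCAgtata

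ATF4 is the transcription factor of the integrated stress response. Amino acid shortage, ER stress and other signals activate kinases that phosphorylate the initiation factor eIF2 alpha, which lowers general protein synthesis and lets the ATF4 transcript be translated, so ATF4 activity is set largely at translation. ATF4 then binds amino acid response elements in genes for amino acid transport, serine and asparagine synthesis and feedback control. The unfolded protein response has 3 sensors in the ER membrane, PERK (EIF2AK3), IRE1 (ERN1) and ATF6. PERK feeds into ATF4, while IRE1, through splicing of XBP1, and ATF6 raise chaperones and degradation genes that carry ER stress response elements.

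The deposited table holds a mean over all libraries, and the whole reads of single libraries were recovered from it for 39 of the 40 members. CALR, the lectin chaperone calreticulin, could not be resolved, and only the authors' mean of 126626 normalised reads can be given for it. Recovered reads summed to between 35100623 and 35924078 per library. Values below are recovered reads divided by the size factor of the library, called normalised reads, and errors are SD over 3 libraries of a group. Genes with a mean of at least 10 were tested with limma on log2(normalised reads + 1), and an adjusted p under 0.05 over all 16103 genes tested was called. That left 36 members. NUPR1, a stress-induced chromatin protein, had 1, 0 and 0 reads in shNEG and 2, 1 and 1 in shSPINK2. PSAT1, of serine synthesis, had 6, 9 and 9 against 3, 4 and 6 reads, and PYCR1, of proline synthesis, had 2, 6 and 7 against 0, 6 and 3. These 3 members were below the minimum mean and were not tested.

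SPINK2 (ENSG00000128040.10), the target of the knockdown, was checked before the members. Recovered reads were 56, 63 and 53 for shNEG, against 7, 9 and 6 for shSPINK2. Its level fell from 57.3 ± 5.11 to 7.26 ± 1.47 normalised reads, a log2 fold change of -2.83 (SE 0.26, limma adjusted p = 1.69e-11). The difference between the groups was wide over the whole table, with 58.7% of all genes tested called, 28.8% higher and 29.8% lower in shSPINK2. Of 12 myeloid markers 11 were measured at a mean of at least 10, while the haemoglobin genes HBB and HBA1 were listed at 0. Some genes listed as markers of other cell types were measured and moved. NKG7 (mean of 5217 normalised reads, log2 fold change 0.58) and CD79A (mean of 183, log2 fold change 0.58) were higher, and COL1A1 (mean of 149, log2 fold change -0.60) was lower. The myeloid markers themselves moved, 7 higher and 1 lower, and their summed level was 108956 to 113021 normalised reads in shNEG and 128375 to 135498 in shSPINK2. LYZ had the largest part in this sum, with group means of 36633 in shNEG and 51560 in shSPINK2. SPI1, CEBPA and CSF3R were not called, and MPO was the lower gene. Whether these shifts have a part in the values of the members was not tested. In bulk RNA, fewer cells that express a gene and less of its RNA per cell cannot be told apart, and the labels do not say whether the 3 libraries of a group came from separate cultures, so the p-values measure the spread between these libraries only.

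Of the 36 members tested, 17 were higher in shSPINK2, 9 were lower and 10 were not called. The 26 calls are 72.2% of the members tested, against the 58.7% over all genes. By counts, the ER chaperones and degradation genes were mostly higher and the ATF4 arm was split. In the ER group 10 of 16 tested members were higher and 2 lower, with a median log2 fold change of 0.23, whereas in the ATF4 arm 5 of 15 were higher and 6 lower, with a median of -0.12. These counts are 62.5% higher and 12.5% lower in the ER group, and 33.3% higher and 40% lower in the ATF4 arm. Over all genes tested 28.8% were higher and 29.8% lower, with a median of 0.00. The difference between the 2 groups of members was not itself tested. The size of most changes was small. DDIT4 and ERO1A were the members past a log2 fold change of 1 in either direction, where 1.71% of all genes were higher and 2.87% lower by that rule. The libraries of the groups did not overlap for 27 of the 36 members, 18 higher and 9 lower in shSPINK2, beside 62.5% of all genes tested (30.9% higher and 31.7% lower).

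**Figure D1:**
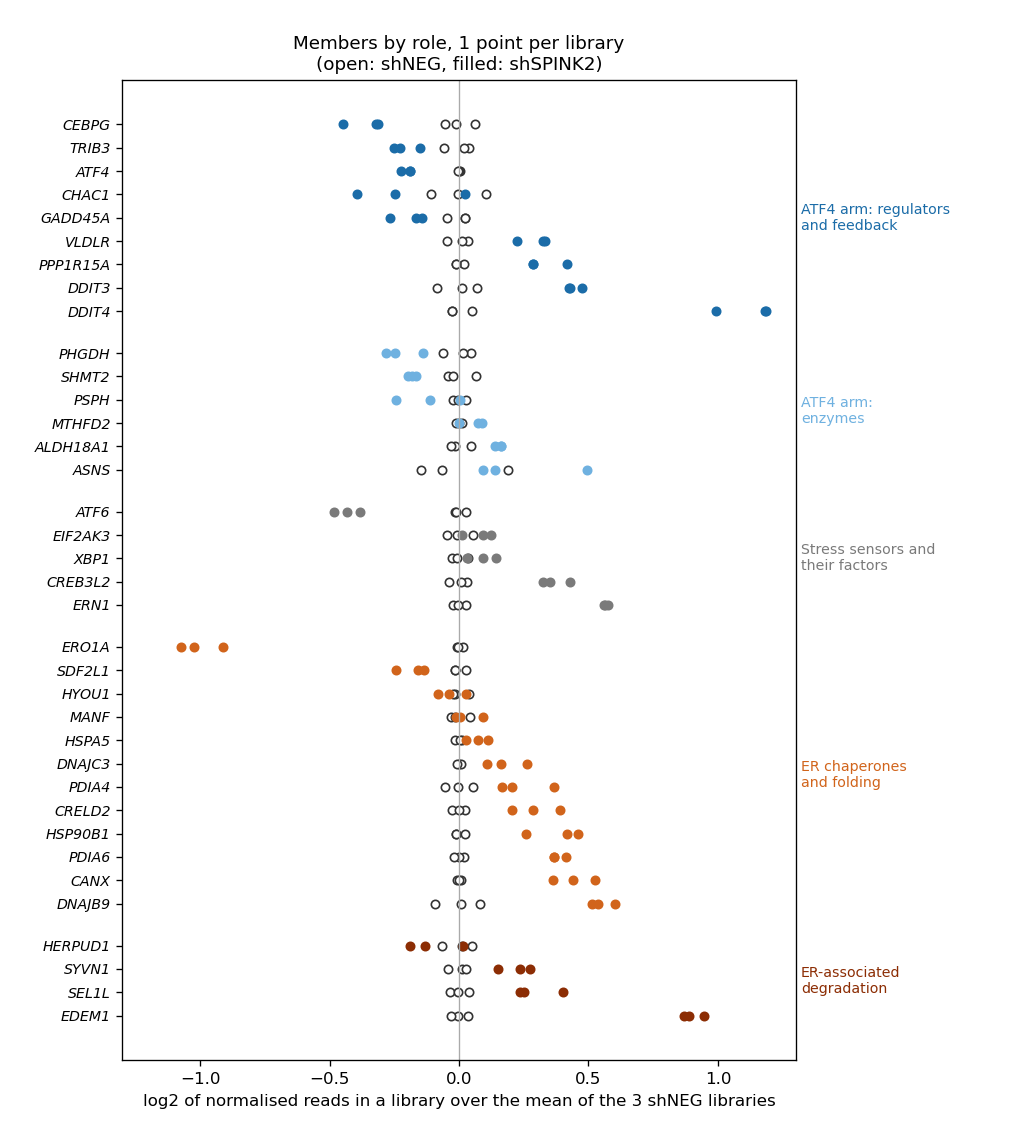
Each row is 1 of the 36 tested members, grouped by role and ordered by fold change, and each point is 1 library. The x axis gives log2 of its normalised reads over the mean of the 3 shNEG libraries (open circles), and filled circles are the 3 shSPINK2 libraries. DDIT4 and EDEM1 stand furthest to the right and ERO1A furthest to the left, and chaperones such as CANX and DNAJB9 lie to the right of every shNEG library.

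ATF4 itself was lower after SPINK2 knockdown. ATF4 (ENSG00000128272.14; chromosome 22, 39519695 to 39522683, GRCh38) had 16061, 15996 and 15992 normalised reads in shNEG and 13699, 14064 and 14064 in shSPINK2. Every shSPINK2 library lay below every shNEG library, and ATF4 fell by 13.0% (log2 fold change -0.20, SE 0.04, limma adjusted p = 1.24e-04). Transcript levels do not measure ATF4 translation. CEBPG, a bZIP protein that pairs with ATF4, had 3486, 3772 and 3588 normalised reads in shNEG and 2649, 2913 and 2895 in shSPINK2. It was the regulator with the lowest fold change (log2 fold change -0.36, SE 0.05, limma adjusted p = 5.31e-08). TRIB3, a pseudokinase that restrains ATF4, had 1901, 1877 and 1779 normalised reads against 1582, 1554 and 1666, without overlap (log2 fold change -0.21, SE 0.05, limma adjusted p = 4.21e-04).

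Other feedback genes of the same arm were higher. DDIT4 (REDD1), an inhibitor of mTORC1 signalling that several stresses induce, had 415, 394 and 393 normalised reads in shNEG and 908, 797 and 911 in shSPINK2. It rose by 118% (log2 fold change 1.12, SE 0.07, limma adjusted p = 3.44e-16), the highest fold change of any member tested. DDIT3, which encodes CHOP, a bZIP factor associated with prolonged stress, had 192, 179 and 199 normalised reads against 256, 255 and 264. Its groups did not overlap (log2 fold change 0.44, SE 0.09, limma adjusted p = 8.63e-05). The DDIT3 value carries a limit of counting, because 27.2% of its exon bases also lie in exons of MARS1 on the opposite strand, a gene with a mean of 10587 normalised reads, and whether reads were counted by strand is not given in the sources used here. PPP1R15A (GADD34), the regulatory subunit that takes the phosphate off eIF2 alpha, rose (log2 fold change 0.33 ± 0.05 SE), as did VLDLR, a lipoprotein receptor under ATF4 control (0.29 ± 0.06 SE). GADD45A, a stress-induced growth arrest gene, fell by 0.19 on the log2 scale (limma adjusted p = 0.0117), and without 1 shNEG library (library c) it was no longer called (limma adjusted p = 0.0511). CHAC1, which breaks down glutathione and is a sensitive ATF4 target in many cells, was low in both groups at 39.97 ± 2.97 and 34.9 ± 5.22 normalised reads and was not called (log2 fold change -0.20, SE 0.20).

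The enzymes of the ATF4 arm moved little. Of 6 tested, 2 were lower, 1 was higher and 3 were not called, and their log2 fold changes ran from -0.22 to 0.25. The share called was 50%, against 58.7% of all genes tested. PHGDH, the first enzyme of serine synthesis, had 12272, 11999 and 11389 normalised reads in shNEG and 10009, 9790 and 10807 in shSPINK2, so every knockdown library was below the controls (log2 fold change -0.22, SE 0.05, limma adjusted p = 8.91e-05). SHMT2, the mitochondrial enzyme that turns serine into glycine and one-carbon units, had 14113, 13115 and 13266 against 11917, 11787 and 12022 normalised reads (log2 fold change -0.18, SE 0.04, limma adjusted p = 5.89e-04). ALDH18A1, of proline synthesis, went the other way, with 7041, 6740 and 6681 against 7511, 7628 and 7640 normalised reads (log2 fold change 0.16, SE 0.04, limma adjusted p = 0.00202). ASNS, asparagine synthetase and the classical gene of the amino acid response, had 133, 111 and 105 normalised reads against 164, 124 and 128. The groups overlapped and ASNS was not called (log2 fold change 0.25, SE 0.13, limma adjusted p = 0.0937), although it was called when either shNEG library a (limma adjusted p = 0.0375) or shSPINK2 library b (limma adjusted p = 0.0494) was left out. Without shSPINK2 library a, its fold change was 0.12 (limma adjusted p = 0.466). A non-coding gene on the same strand covers 49.3% of its exon bases in the annotation. PSPH, the last enzyme of serine synthesis, had a log2 fold change of -0.12 (SE 0.05, limma adjusted p = 0.0558) and was called without shSPINK2 library c (limma adjusted p = 0.00670). Without shSPINK2 library a it stood at -0.05 (limma adjusted p = 0.367). MTHFD2, of mitochondrial folate metabolism, had a log2 fold change of 0.05 (SE 0.04) and was not called.

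The letters of the amino acid response element, TGATGNAA on either strand, were found in the promoters of 5 of the 35 members (48 promoters) in the RefSeq promoter table (GRCh38.p14, 250 bases before to 50 after a start). The table gave no promoter for NUPR1, GADD45A, PSPH, SHMT2 or PYCR1. By gene the element was in 4.46% of all 27305 genes of the table, and by promoter in 3.62% of 35116. Among the 10270 tested genes with a promoter it was in 2.86%. It occurred in 3 of 13 ATF4 arm members, in 1 of 17 ER members and in 1 of the 5 stress sensors or their transcription factors. The 3 of the ATF4 arm are shown with the element in capitals, 5′ to 3′ on the strand of the gene, so that the promoters of the genes measured here can be compared.
ASNS, chr7:97872458-97872487, minus strand: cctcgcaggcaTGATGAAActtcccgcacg
CHAC1, chr15:40953251-40953280, plus strand: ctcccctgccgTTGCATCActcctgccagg
CEBPG, chr19:33374060-33374089, plus strand: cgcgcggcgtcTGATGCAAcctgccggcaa
Among the 5 members that carry it, CEBPG was lower, CREB3L2 was higher, and ASNS, CHAC1 and HERPUD1 were not called. Over all genes tested 28.8% were higher and 29.8% lower. In CREB3L2 the element begins at base 17 after the start and not before it.

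The stress sensors and their transcription factors moved in both directions, with 2 of 5 higher, 1 lower and 2 not called. This share of calls is near the 58.7% of all genes tested. ERN1 (IRE1), the kinase and endoribonuclease that splices XBP1, had 1414, 1363 and 1382 normalised reads in shNEG and 2046, 2051 and 2065 in shSPINK2, a rise of 48.2% with no overlap (log2 fold change 0.57, SE 0.05, limma adjusted p = 2.35e-12). ATF6, the sensor that is cut in the Golgi to free a transcription factor, was lower by 25.8%, with 3766, 3880 and 3778 normalised reads against 2727, 2924 and 2824 (log2 fold change -0.43, SE 0.04, limma adjusted p = 3.11e-10). EIF2AK3 (PERK), the sensor that phosphorylates eIF2 alpha, had 1046, 976 and 1002 against 1017, 1075 and 1098 normalised reads. These values overlapped and PERK was not called (log2 fold change 0.08, SE 0.05, limma adjusted p = 0.237).

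XBP1, whose spliced transcript encodes the factor downstream of IRE1, had 12009, 11482 and 11637 normalised reads in shNEG and 11955, 12498 and 12944 in shSPINK2. It overlapped between the groups and was not called (log2 fold change 0.09, SE 0.04, limma adjusted p = 0.0782), but was called without shSPINK2 library a (limma adjusted p = 0.0147). Counts per gene do not separate spliced from unspliced XBP1. CREB3L2, a membrane-bound factor related to ATF6 that is known for secretory pathway genes, had 7929, 7806 and 7548 normalised reads against 9910, 10445 and 9730 and was higher in every knockdown library (log2 fold change 0.37, SE 0.04, limma adjusted p = 5.36e-09).

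**Figure D2:**
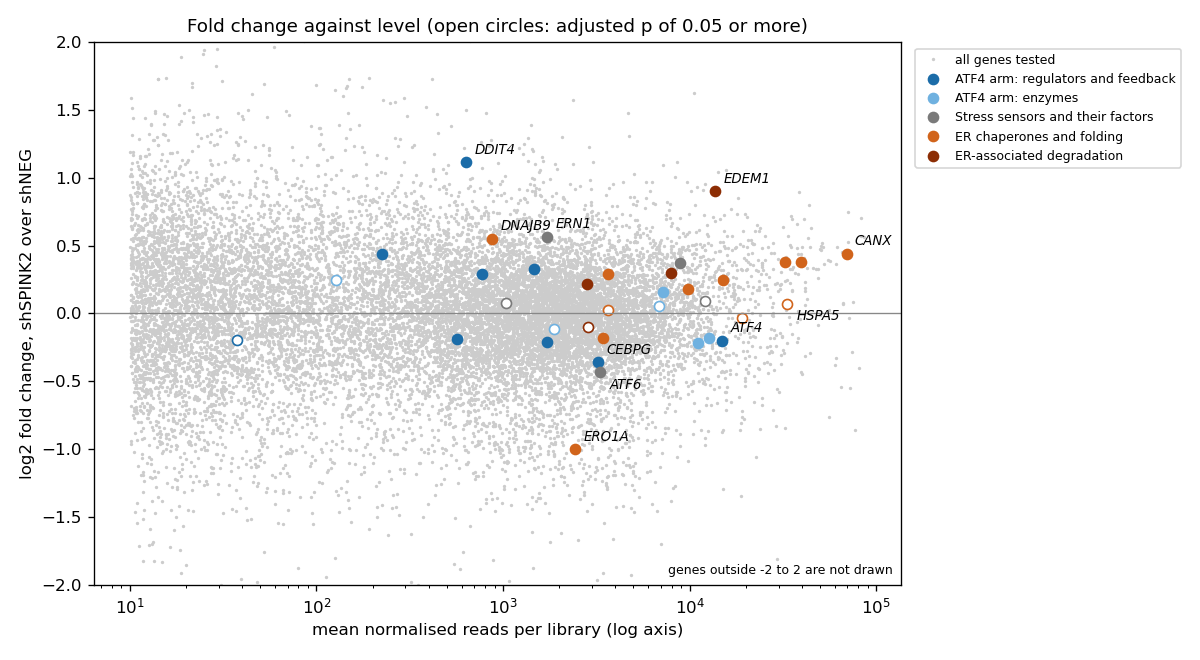
The x axis is the mean normalised reads per library on a log scale and the y axis the log2 fold change of shSPINK2 over shNEG, with all genes tested in grey, members in the colour of their role and members with an adjusted p of 0.05 or more as open circles. Most members lie within 0.6 of the line at 0, with DDIT4 at 1.12, EDEM1 at 0.90 and ERO1A at -1.003 outside it.

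Among the ER chaperones and folding enzymes, 7 of 12 tested members were higher (58.3%), 2 were lower (16.7%) and 3 were not called. Over all genes tested 28.8% were higher and 29.8% lower. DNAJB9 (ERdj4), a co-chaperone of BiP, had the highest fold change of the group, with 663, 713 and 748 normalised reads in shNEG and 1010, 1074 and 1028 in shSPINK2 (log2 fold change 0.55, SE 0.06, limma adjusted p = 6.60e-10). CANX, the membrane-bound lectin chaperone calnexin, had 58475, 59015 and 58741 normalised reads against 75494, 84431 and 79628 and was 35.9% higher (log2 fold change 0.44, SE 0.05, limma adjusted p = 3.71e-09). In both genes each knockdown library lay above all controls. The rise was shared by the protein disulphide isomerases PDIA6 (log2 fold change 0.38 ± 0.05 SE) and PDIA4 (0.25 ± 0.05 SE) and by HSP90B1, the ER form of HSP90 (0.38 ± 0.05 SE). CRELD2, an ER protein induced by stress (0.29 ± 0.05 SE), and DNAJC3, a co-chaperone that also inhibits PERK (0.18 ± 0.04 SE), were higher as well.

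The leading chaperone of the response was not called. HSPA5 (BiP), which binds unfolded chains and holds the sensors inactive, had 32490, 31928 and 32360 normalised reads in shNEG and 32900, 34910 and 33950 in shSPINK2. All knockdown libraries were above the controls, by 5.15% on average, with a log2 fold change of 0.07 (SE 0.05, limma adjusted p = 0.179). MANF, a secreted ER protein (log2 fold change 0.03, SE 0.04), and HYOU1, an ER relative of HSP70 (-0.03, SE 0.04), overlapped between the groups and were not called. ERO1A, the oxidase that recharges protein disulphide isomerases, was the member with the lowest fold change. It had 3220, 3270 and 3227 normalised reads in shNEG and 1540, 1720 and 1593 in shSPINK2, and fell by 50.1% (log2 fold change -1.003, SE 0.05, limma adjusted p = 9.13e-19). SDF2L1, part of a BiP complex, had 3625, 3629 and 3737 against 3279, 3092 and 3339 normalised reads and fell by 0.18 on the log2 scale (SE 0.04, limma adjusted p = 8.25e-04).

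The ER stress response element, spelled CCAAT, then any 9 bases, then CCACG and searched on both strands, is rare, with 0.0769% of all promoters and 0.0916% of all genes in the table. It was in 7 of 35 members, of which 6 were chaperones (of 13) and 1 was XBP1, and in none of the 13 ATF4 arm members. The sites of the tested members are shown with the element in capitals, 5′ to 3′ on the strand of the gene.
HSPA5, chr9:125241385-125241414, minus strand: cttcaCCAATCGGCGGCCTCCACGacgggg
PDIA6, chr2:10812847-10812876, minus strand: ccggaCCAATGAGCCGCAGCCACGgcttgg
CANX, chr5:179698773-179698802, plus strand: cccggCCAATCTTCACACTCCACGaagaat
HSP90B1, chr12:103930211-103930240, plus strand: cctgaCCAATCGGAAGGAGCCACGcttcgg
HSP90B1, chr12:103930316-103930345, plus strand: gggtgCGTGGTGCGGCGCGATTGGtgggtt
CRELD2, chr22:49918549-49918578, plus strand: cctctCGTGGCGAACTCGGATTGGgccata
XBP1, chr22:28800597-28800626, minus strand: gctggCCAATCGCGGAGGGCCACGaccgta
Of these 7 members, 4 were higher (PDIA6, CANX, HSP90B1 and CRELD2), beside 28.8% of all genes tested. HSPA5 and XBP1 were not called, and CALR, which also carries a site, was not tested. The third motif, TGACGTGG, known as the unfolded protein response element and sharing the letters CCACG of the previous motif on its other strand, was in 0.927% of all genes and in 2 members, ALDH18A1, which was higher, and HYOU1, which was not called. A match is a description of the letters and does not show binding. Chaperone genes are known to carry ER stress response elements, so the share among them is no finding of these data.

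Of the 4 degradation genes among the members 3 were higher and 0 lower, beside 28.8% and 29.8% of all genes tested. Degradation genes outside the members, read in the same fit, went both ways. ERLEC1 (log2 fold change -0.64), DERL3 (-0.59) and DERL2 (-0.16) were lower. OS9 (0.36) and EDEM2 (0.79) were higher, and EDEM3 was not called. EDEM1, a lectin of the ER that hands misfolded glycoproteins to degradation, had 9811, 9542 and 9379 normalised reads in shNEG and 17706, 18463 and 17476 in shSPINK2. It rose by 86.7% (log2 fold change 0.90, SE 0.04, limma adjusted p = 1.05e-18). SEL1L, the adaptor of the degradation complex, had 6939, 7302 and 7103 against 8372, 9398 and 8472 normalised reads (log2 fold change 0.30, SE 0.05, limma adjusted p = 1.13e-06). SYVN1 (HRD1), the ubiquitin ligase of that complex, had 2632, 2661 and 2535 against 3155, 3071 and 2899 normalised reads (log2 fold change 0.22, SE 0.05, limma adjusted p = 1.04e-04). These 3 genes were higher in every knockdown library, although SYVN1 shares exon bases with FAU (2.37%) and MRPL49 (6.48%) in the annotation. HERPUD1, which organises the complex and is a target of both ATF4 and ATF6, overlapped, with 3062, 2979 and 2825 against 2589, 2698 and 2986 normalised reads. It was not called (log2 fold change -0.10, SE 0.05, limma adjusted p = 0.0799), and it was called as lower without shSPINK2 library c (limma adjusted p = 0.00848), while without shSPINK2 library a it stood at -0.06 (limma adjusted p = 0.334).

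Levels between genes were compared per kilobase of exon, with the merged exons of the GENCODE annotation as length. This length holds the exons of every annotated transcript, used or not, so the order below depends on the annotation. It also holds bases shared with other genes on the same strand, 49.3% for ASNS and 14.1% for PYCR1. How reads on shared bases were counted is not given in the sources used here, so these levels can be too low. CANX (13764 bases) and HSP90B1 (13092) had means of 69297 and 39537 normalised reads, above the 14979 of ATF4 (2613 bases). ERN1 and EIF2AK3 have 19153 and 20691 bases. CALR was the highest by the authors' mean, at 45191 normalised reads per kb, followed by PDIA6 at 7884, ATF4 at 5733 and HSPA5 at 5067. The sensors ERN1 and EIF2AK3 were low, at 89.8 and 50.1 normalised reads per kb. In the ATF4 arm, ASNS at 26.0 and CHAC1 at 18.3 were far below SHMT2 at 2766, and the untested PSAT1 at 2.79, PYCR1 at 1.39 and NUPR1 at 0.149 were the lowest members.

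**Figure D3:**
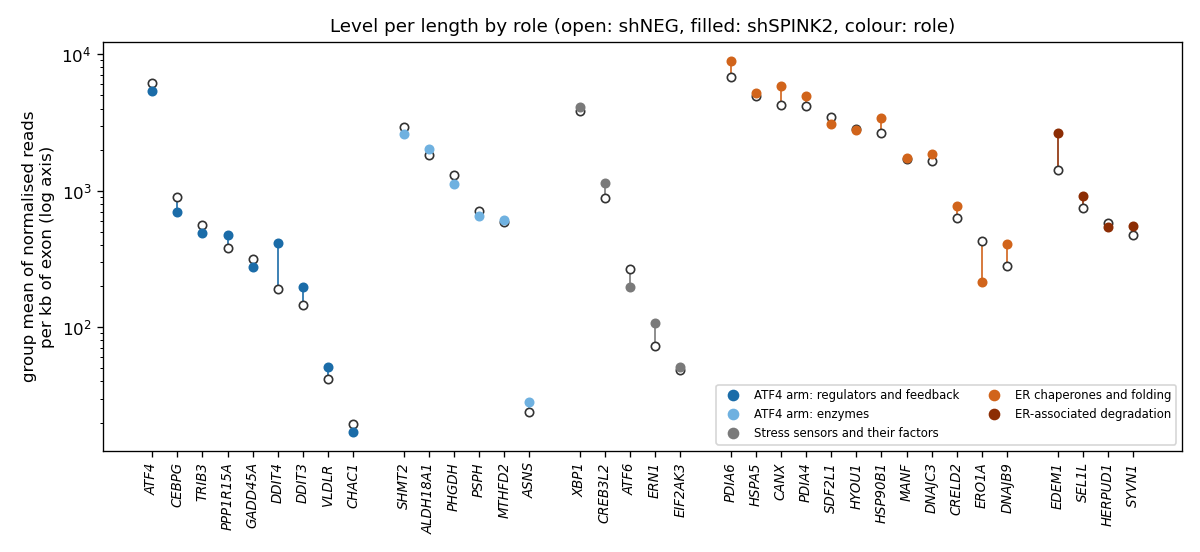
Group means of normalised reads per kb of exon on a log axis, for the 36 tested members by role, with shNEG as open and shSPINK2 as filled circles joined by a line. Chaperones lie mostly above 1000 normalised reads per kb, while ERN1, EIF2AK3, VLDLR, ASNS and CHAC1 lie near or below 100, and the gap between groups is widest for DDIT4, ERO1A and EDEM1.

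Other genes of both pathways, from 3 lists that do not contain the members, were read in the same fit. Of 27 other ATF4 targets 23 were tested, with 7 higher (30.4%), 9 lower (39.1%) and a median log2 fold change of -0.05. Over all genes tested 28.8% were higher and 29.8% lower. The amino acid response element was in 9 of the 22 of these targets with a listed promoter. SLC7A11, the cystine transporter, and KLHL24, an ubiquitin ligase adaptor, had the highest fold changes. SLC7A11 had 1022, 1100 and 989 normalised reads in shNEG and 1877, 2113 and 1831 in shSPINK2 (log2 fold change 0.90, SE 0.06, limma adjusted p = 1.02e-15), and KLHL24 had 691, 730 and 644 against 1292, 1336 and 1159 (0.87, SE 0.06, limma adjusted p = 2.33e-14). At the other end were MTHFD1L, of mitochondrial folate metabolism, and SLC7A5, the leucine transporter LAT1. MTHFD1L had 4031, 3895 and 3988 normalised reads against 1839, 1974 and 2150 (log2 fold change -1.001, SE 0.05, limma adjusted p = 2.54e-18), and SLC7A5 had 16068, 15642 and 15771 against 8278, 8340 and 8490 (-0.92, SE 0.04, limma adjusted p = 2.89e-19). Of the other amino acid transport genes, SLC3A2, the partner subunit of SLC7A11 and SLC7A5, was lower (log2 fold change -0.28 ± 0.04 SE). SLC7A1 (-0.28), SLC1A5 (-0.34) and SLC1A4 (-0.12) were lower as well, and SLC38A2 and SLC6A9 were not called. SLC7A11 was thus the only amino acid transporter of this list called higher.

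Of 32 other genes of the unfolded protein response, all tested, 20 were higher (62.5%) and 7 lower (21.9%). Over all genes tested these shares were 28.8% and 29.8%. The median log2 fold change of the 32 genes was 0.24, close to the 0.23 of the ER members. The ER stress response element was in 1 of the 28 of them with a listed promoter, against 6 of 13 chaperone members. SIL1, which exchanges the nucleotide of BiP, had 1171, 1200 and 1217 normalised reads in shNEG and 2090, 2050 and 2253 in shSPINK2 (log2 fold change 0.83, SE 0.05, limma adjusted p = 4.87e-16). EDEM2, a relative of EDEM1, had 3055, 2860 and 3065 against 5147, 5051 and 5336 (0.79, SE 0.04, limma adjusted p = 8.13e-17). KDELR1, a receptor that returns chaperones from the Golgi to the ER, had 7614, 7649 and 7877 normalised reads against 2977, 3097 and 2976, and fell by 60.9% (log2 fold change -1.35, SE 0.04, limma adjusted p = 1.77e-23). Its relatives KDELR2 and KDELR3 were higher (log2 fold changes of 0.36 and 0.64). CREB3L1, another membrane-bound factor, was near the limit of what was tested, with 22, 17 and 26 recovered reads against 9, 13 and 15 (log2 fold change -0.78, SE 0.30, limma adjusted p = 0.0241).

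Of 7 genes for eIF2 alpha, its kinases and its phosphatase, 2 were higher and 3 lower, beside 28.8% and 29.8% of all genes tested. EIF2AK4 (GCN2), the kinase that senses uncharged tRNA, had 3189, 3065 and 3098 normalised reads in shNEG and 3391, 3632 and 3733 in shSPINK2 (log2 fold change 0.20, SE 0.05, limma adjusted p = 2.98e-04), and EIF2AK1 (HRI), the haem-regulated kinase, had 3315, 3209 and 3411 against 3563, 3751 and 3730 (0.15, SE 0.04, limma adjusted p = 0.00362). EIF2B5, a subunit of the exchange factor that phosphorylated eIF2 inhibits, had 4703, 4512 and 4719 against 3858, 3900 and 3922 (log2 fold change -0.25, SE 0.04, limma adjusted p = 4.60e-06). PPP1R15B, the constitutive partner of the phosphatase, had 4604, 4369 and 4750 against 4043, 4419 and 4163 and was called although its groups overlapped (-0.12, SE 0.05, limma adjusted p = 0.0237).

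**Figure D4:**
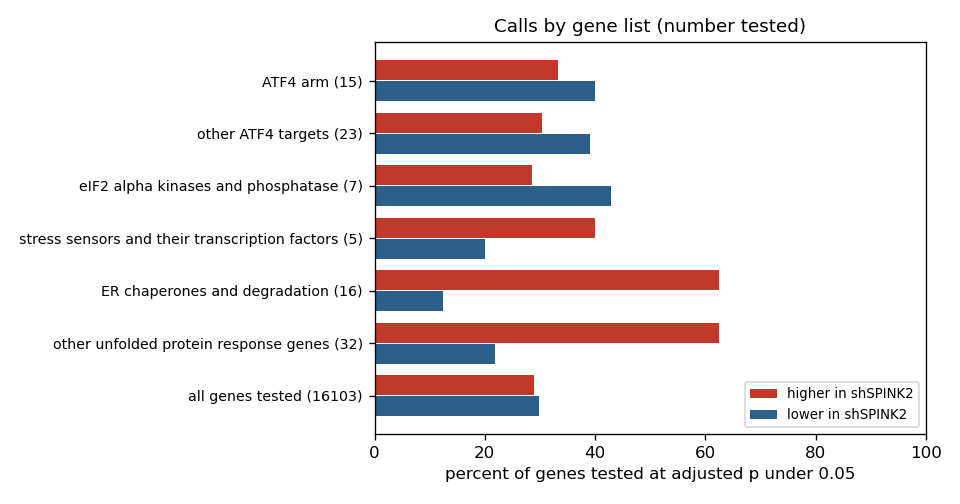
Bars give the percent of the tested genes of each list that were higher (red) or lower (blue) in shSPINK2 at an adjusted p under 0.05, with the number tested in parentheses and all 16103 genes at the bottom. Both lists of ER genes have 62.5% higher, against 28.8% of all genes, while the ATF4 arm and the other ATF4 targets have 33.3% and 30.4% higher, and 6 of 15 and 9 of 23 lower.

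Stretches of the shRNA sequences were looked up in the 3′ UTRs of canonical transcripts, as a description. The 7 letters in capitals in shRNA2, at its positions 10 to 16, had been picked in earlier work on these same data for occurring in lower genes, so their share restates that choice. Of the tested genes with them 53.3% were lower in shSPINK2, against 32.4% of those without. The 7 letters before the last base, which were not picked in that way, showed no such excess. For shRNA2 (TCAGTAT) 33.7% of the genes with them were lower against 34.7% without, and for shRNA1 (TCATAAT) 32.3% against 34.9%. Among the 40 members the picked letters occurred in 4 (MTHFD2, ERN1, ATF6 and HSPA5), TCAGTAT in 6 and TCATAAT in 5. In that order, 10.4%, 15.2% and 13.4% of tested genes with a 3′ UTR carried them. Of the 9 lower members these stretches occurred in 1, 2 and 2. Among the other pathway genes the picked letters were in SLC7A5, MTHFD1L, KDELR1, DERL3 and MBTPS2, which were lower. They were also in KLHL24, DNAJC10 and SSR1, which were higher. What part any of these stretches has in the fold change of a gene was not tested, and the methods of the study do not name shRNA2.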

How the data were processed

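RNA of 6 FUJIOKA libraries (3 shNEG, 3 shSPINK2) was sequenced as paired 150-base reads. Per the labels and the methods of the study, the authors ran FastQC for quality, STAR 2.7.11 for alignment to GRCh38 (hg38), featureCounts for counts per gene and DESeq2 1.40.0. The annotation release and the strand setting are not given in the sources used here. The deposited table holds 1 signal per gene, the mean of size-factor-normalised counts over all libraries, and columns of the authors' own comparison (log2 fold change, its standard error, a statistic, p-values and a status).

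Whole reads per library were recovered from the mean. The authors' log2 fold change and standard error served only as the key that picks the whole reads, and their sign tied each size factor to a group. They are neither printed nor compared, but fold changes computed from the recovered reads are for this reason not independent of them. The statistic, p-value and status columns were not read. Reads were found for 25587 of 25948 genes searched (mean of at least 0.5) and for 99.83% of the 16131 whose mean was 10 or more. With the key moved by 0.01, 0 of 1000 genes had a solution. The unrecovered genes searched hold 8.26% of the summed means. The recovered libraries are named a, b and c by size factor and carry no replicate number.

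limma 3.58.1 (R 4.3.3) with a mean-variance trend was fitted to log2(reads / size factor + 1) for 16103 genes with a mean of at least 10, with Benjamini-Hochberg adjustment. A fold change on this scale understates the change of low genes. Both steps were tested on simulated data. edgeR 4.0.16, DESeq2 1.42.0 and other settings were alternatives. Positions and lengths are from GENCODE, promoters from RefSeq. Reads carry no molecular identifiers, so their number covers counting error only. No 2 libraries agreed within sampling noise, with a chi-square per degree of freedom of 1.91 to 2.62 within shNEG and 3.86 to 6.28 within shSPINK2.

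The members and lists were chosen with earlier results of these data known. Every member has a value, and values per library are given for the 2 highest and 2 lowest fold changes of each role, the sensors, ATF4, DDIT3, XBP1, HSPA5 and SPINK2, and for the 2 highest and 2 lowest called genes of each other list. The other members are given by fold change. SLC3A2, SLC7A1, SLC1A5, SLC1A4, SLC38A2, SLC6A9, KDELR2 and KDELR3 were named after their values were seen. The same holds for DERL2, DERL3, ERLEC1, OS9, EDEM3, MBTPS2, DNAJC10 and SSR1.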

Additional observations from a re-analysis of the deposited data

How the results depend on the processing

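The counts of calls among the members, the ATF4 arm, the ER group and the other pathway genes stayed within 1.5 times under pseudocounts of 0.5 and 5, other filters, TMM and median-of-ratios factors, edgeR, DESeq2, an adjusted p under 0.01, and each library left out. They did not under the added demand of a log2 fold change over 1 in size, which kept 2 members (1 higher, 1 lower), 1 in the ATF4 arm (1 higher, 0 lower), 1 in the ER group (0 higher, 1 lower) and 2 other genes (0 higher, 2 lower), since few changes are that large. SPINK2 ran from -2.98 to -2.35, and at a mean of at least 50 neither SPINK2 nor CHAC1 could be tested. With genes above a mean of 35000 left out, where recovery in simulation is less often unique, HSP90B1 and CANX had no test. For single members, 528 of the alternative fits kept the call, 8 made one and 1 lost one, and no fold change of a called member reversed. Beside the libraries named above, PSPH was called at a mean of at least 50 (limma adjusted p = 0.0495) and with TMM (0.0347), and HERPUD1 with TMM (0.0495). No scaling moved the median of all genes by more than 0.01. No paired analysis was possible because the recovered libraries carry no replicate number. Of the 4 members without a test, NUPR1, PSAT1 and PYCR1 fell below the chosen minimum mean of 10, and the reads of CALR were not recovered.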
